A study of Homo sapiens with 18 samples.

Results

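The S100 proteins are small calcium-binding proteins, and 10 of their genes were followed here: S100A2, S100A4, S100A6, S100A7, S100A8, S100A9, S100A10, S100A14, S100A16 and S100P. They were chosen by name from the 42141 genes in the tables, and all 10 were among the 16911 genes that passed the filter on low counts. S100A7 passed that filter only through its higher groups. RNA came from acini, the hollow spheres that mammary epithelial cells form in a basement membrane gel, of MCF-10A.B2. This is a derivative of the non-tumorigenic human breast line MCF-10A with an inducible HER2 receptor that the B/B homodimerizer (dimerizer below) joins into active pairs. The 6 groups, 3 libraries each, were WT control, WT dimerizer, WT dimerizer plus TGF-β1, and the same 3 treatments of JNK knockout (JNKKO) cells. All acini grew for 21 days: 7 days with EGF, then 14 days in which EGF was replaced by ethanol (control), by dimerizer, or by dimerizer and TGF-β1, in medium with horse serum, insulin, hydrocortisone and cholera toxin. The series asks how transformation in 3D culture differs between WT and JNKKO cells. Which JNK genes were edited, and whether JNKKO is 1 clone, is not given in the sources used here. Nor do the labels say whether libraries of a group were separate cultures. The p-values thus set a difference only against the spread among these samples, and that spread may be technical.

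Each S100 protein has a pair of EF-hand loops, which in most members bind calcium. Most members act as dimers that change shape on binding and then dock onto partner proteins. Inside cells they touch annexins, myosin and p53 pathways, and some are released and act on receptors such as AGER (RAGE) and TLR4. Most of the genes lie side by side in the epidermal differentiation complex. In skin and mammary epithelium S100A7, S100A8 and S100A9 are known for stress and inflammation, S100A4 for motile and mesenchymal cells, and S100A10 as the partner of annexin A2. TGF-β1 is a cytokine that pushes epithelial cells toward mesenchymal features, and JNK is a stress-activated kinase whose best known target is the AP-1 factor JUN.

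In GENCODE 29 (hg38), 9 of the 10 genes lay on chromosome 1, from 151982915 (the start of S100A10) to 153616986 (the end of S100A14), a span of 1634.1 kb. S100P lay on chromosome 4, 6693069 to 6697170. RefSeq promoter windows, from 250 bases before to 50 after a start, were matched for all 10 members by symbol, 14 windows in all (GRCh38.p14). The forward-strand TATA box TATAAA was found in 6 windows of 5 members, while 7.33% of the 35116 windows of all genes hold it. Because S100A8 windows overlap, the same S100A8 site is counted more than once among the 6 windows of the 5 members. The 5 are S100A9, S100A8, S100A7, S100A4 and S100P, and the 30 bases from 40 to 11 before the start are shown for each because both calprotectin subunits and the scarce members are among them, 5′ to 3′ on the gene's strand with the TATA box in capitals. They are S100A9 at chr1:153357814-153357843 (plus strand), S100A8 at chr1:153391084-153391113 (minus), S100A7 at chr1:153460662-153460691 (minus), S100A4 at chr1:153545817-153545846 (minus) and S100P at chr4:6693838-6693867 (plus).
S100A9: caggagctgccTATAAAtgccgagcctgca
S100A8: agcctaaccgcTATAAAaaggagctgcctc
S100A7: caggctgagcctTATAAAggactgctcttt
S100A4: tggctggggTATAAAtaggtcagacctctg
S100P: atgaggctgcctTATAAAgcaccaagaggc

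The AP-1 motif TGANTCA, searched on both strands, was in 1 window, that of S100A2, while 7.71% of all windows hold it. The sequence from 250 to 22 bases before that start is chr1:153565866-153566094 (minus strand), shown because JNK acts on AP-1, with the match in capitals.
S100A2: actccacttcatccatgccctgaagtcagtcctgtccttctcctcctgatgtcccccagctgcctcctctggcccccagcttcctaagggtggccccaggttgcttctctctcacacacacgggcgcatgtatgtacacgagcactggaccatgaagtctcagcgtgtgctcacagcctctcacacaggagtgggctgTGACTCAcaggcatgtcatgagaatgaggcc
Neither TTGCNNAA, a C/EBP-like motif found in 10.5% of all windows, nor the SMAD palindrome GTCTAGAC, in 0.202%, occurred in the members' windows (both strands), which says only that these letters are not there. The whole 250 bases before the S100A9 start, chr1:153357604-153357853 (plus strand), are given as well because S100A9 had the largest fold change of the 10 genes in any comparison.
S100A9: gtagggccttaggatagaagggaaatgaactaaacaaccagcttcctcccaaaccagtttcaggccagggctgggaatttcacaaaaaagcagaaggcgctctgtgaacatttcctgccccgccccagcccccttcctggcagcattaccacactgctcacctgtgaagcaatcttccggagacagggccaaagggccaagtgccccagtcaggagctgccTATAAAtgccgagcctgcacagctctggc

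Library totals ran from 24243537 to 34499651 expected counts. Transcripts of the 13 mitochondrial protein genes took 13.01% to 13.1% of counts in WT control and 4.60% to 9.30% elsewhere, with JNKKO dimerizer plus TGF-β1 lowest at 4.60% to 4.85%, so whatever set those cultures apart and the genotype or treatment they carry cannot be told apart. MAPK9, which encodes JNK2, was at 42.05 to 53.9 CPM (counts-per-million, scaled by library size) in the 9 JNKKO libraries and 57.1 to 68.4 in the 9 WT libraries. MAPK8 (JNK1) differed in JNKKO from WT by 0.47 ± 0.06 on the log2 scale in control, -0.02 ± 0.05 on dimerizer and -0.32 ± 0.06 after TGF-β1, and MAPK10 (JNK3) by -0.49 ± 0.10, 0.47 ± 0.11 and -0.09 ± 0.12. WT dimerizer plus TGF-β1 replicate 3 carries a JNK knockout tag against its WT title and was grouped by title. That group's replicate 1 and JNKKO dimerizer replicate 2 stood farthest from their fellow replicates. Basal epithelial markers (KRT5, KRT14, TP63 and 5 others) summed to 9340 to 16398 CPM, all 8 above 1 CPM in every group.

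Per unit of length, in transcripts-per-million units (TPM), the 10 genes together took 0.816% ± 0.0438 of all transcripts in control WT acini, 1.42% ± 0.00831 in those on dimerizer and 1.41% ± 0.0861 in those on dimerizer plus TGF-β1 (SD, n = 3). In JNKKO the shares were 1.14% ± 0.0131, 1.85% ± 0.0350 and 1.88% ± 0.0184. S100A2 had the highest TPM of the 10 in 5 groups, between 4204 and 8735. In WT control S100A6 was above it, at 3019 against 2701 TPM. S100A7 and S100P were the lowest members in all 6 groups, with at most 10.6 and 9.78 TPM. S100A9 ranged most among the abundant members, from 55.7 TPM in WT dimerizer plus TGF-β1 to 1399 in JNKKO control. In bulk RNA fewer cells that express a gene and less RNA per cell cannot be told apart.

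**Figure D1:**
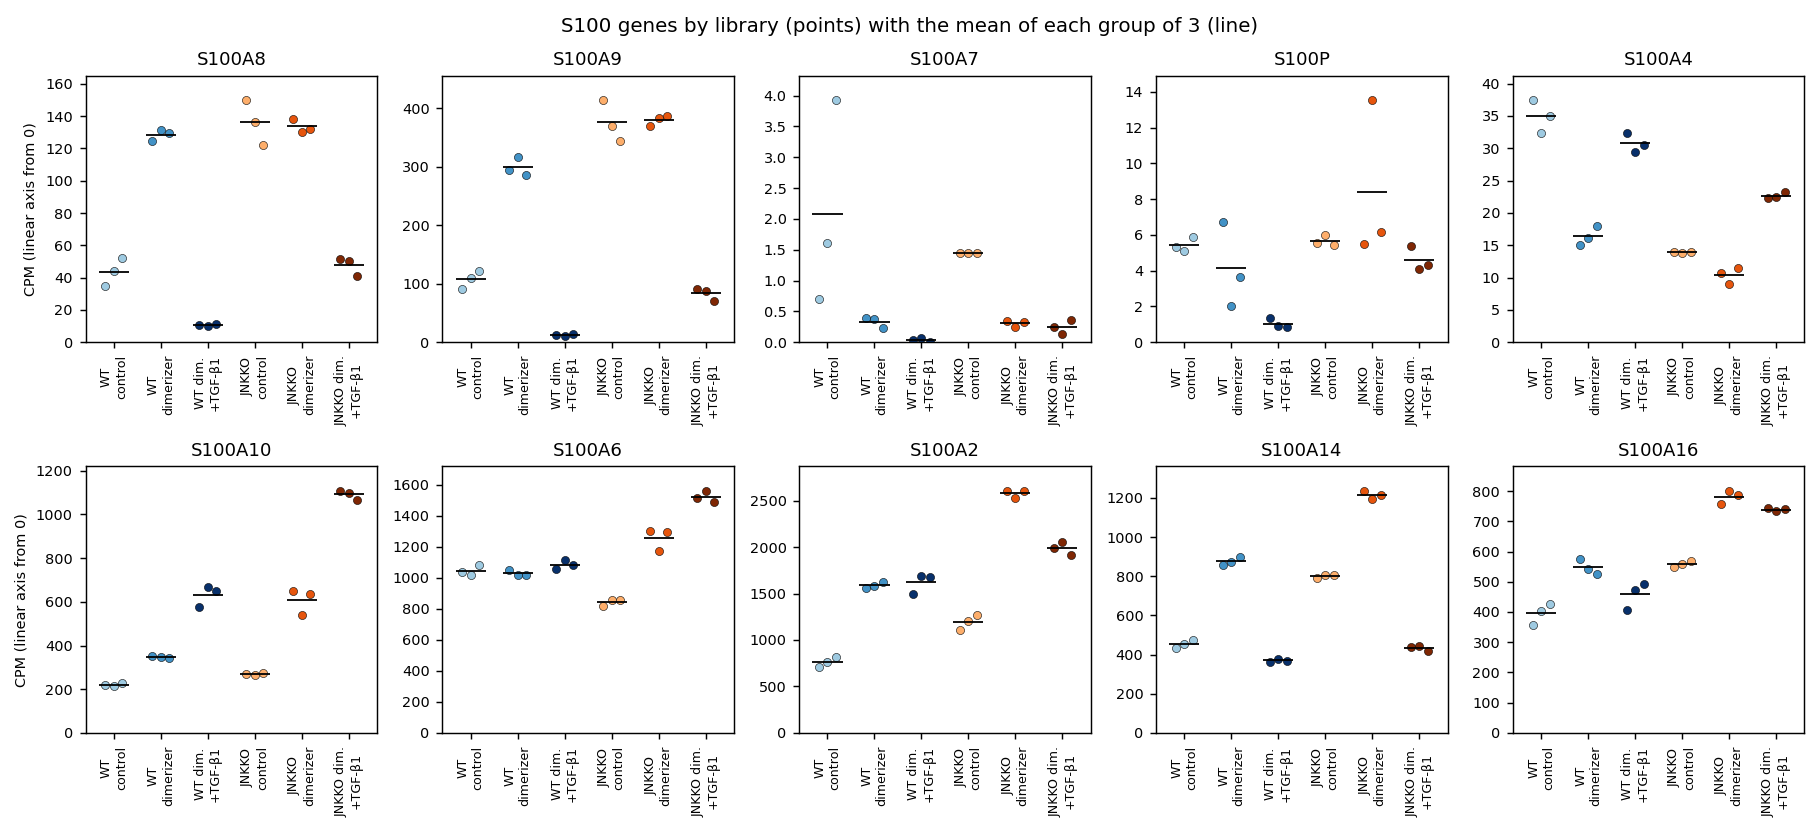
Expression of the 10 S100 genes in each library, in CPM on linear axes that start at 0, by group. Points are libraries and lines are group means. S100A8 and S100A9 drop in WT dimerizer plus TGF-β1 below all other groups, while S100A10 is highest in JNKKO dimerizer plus TGF-β1.

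S100A8 and S100A9 form calprotectin, a heterodimer that binds zinc, manganese and calcium and that myeloid cells and stressed epithelia make in quantity. In WT acini both rose with dimerizer and fell with TGF-β1 to the lowest level of any group. In JNKKO acini both were already high in control, passed no test for a change with dimerizer, and fell less far with TGF-β1. S100A8 (chromosome 1, 153390032 to 153391188, minus strand) was at 34.9, 43.9 and 52.1 CPM in control WT acini, 124, 131 and 129 in those on dimerizer, and 10.8, 10.3 and 11.4 in those on dimerizer plus TGF-β1. Its JNKKO values were 149.9, 136 and 122 CPM in control, 138, 130.4 and 132 on dimerizer, and 51.7, 50.1 and 41.3 once TGF-β1 was added. The 3 WT groups did not overlap, whereas JNKKO control and JNKKO dimerizer overlapped each other and WT dimerizer, and JNKKO with TGF-β1 overlapped WT control.

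S100A9 (153357854 to 153361027, plus strand) stood at 90.3, 109.7 and 123 CPM in control WT acini, 293, 317 and 286 in those on dimerizer, and 12.4, 10.97 and 14.4 in those on dimerizer plus TGF-β1. In JNKKO it was at 414, 369.9 and 344 CPM in control, 370.1, 382 and 386 on dimerizer, and 91.8, 88.2 and 70.8 once TGF-β1 was added. Every JNKKO control library was thus above every WT dimerizer library, and the lowest JNKKO library with TGF-β1 was above all 3 of its WT counterparts.

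With dimerizer S100A8 rose in WT by 1.56 ± 0.12 on the log2 scale and S100A9 by 1.48 ± 0.12 (edgeR quasi-likelihood, Benjamini-Hochberg adjusted p = 9.08e-08 and 1.52e-07). In JNKKO the values were -0.03 ± 0.11 and 0.01 ± 0.11 (edgeR quasi-likelihood, Benjamini-Hochberg adjusted p = 0.871 and 0.939), each of a sign that changed when 1 control library was left out and, for S100A9, on TPM at -0.03. The interaction of genotype and dimerizer, the JNKKO change minus the WT change, was -1.59 ± 0.16 for S100A8 and -1.46 ± 0.16 for S100A9 (edgeR quasi-likelihood, Benjamini-Hochberg adjusted p = 3.64e-06 and 7.88e-06).

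TGF-β1 added to dimerizer lowered S100A8 by 11.8-fold in WT (-3.56 ± 0.14) and 2.80-fold in JNKKO (-1.48 ± 0.12). S100A9 fell 23.7-fold in WT (-4.57 ± 0.15) and 4.54-fold in JNKKO (-2.18 ± 0.12), all 4 with an adjusted p of at most 1.04e-07 (edgeR quasi-likelihood test, Benjamini-Hochberg). The fall was smaller in JNKKO: the interactions were 2.08 ± 0.19 for S100A8 and 2.39 ± 0.19 for S100A9 (edgeR quasi-likelihood, Benjamini-Hochberg adjusted p = 1.93e-06 and 5.64e-07). Without WT dimerizer plus TGF-β1 replicate 1 they were 2.09 and 2.39, without its replicate 3 they were 2.14 and 2.52, and without JNKKO dimerizer replicate 2 they were 2.06 and 2.39.

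Between genotypes, S100A8 was higher in JNKKO by 1.64 ± 0.12 in control and 2.13 ± 0.15 with TGF-β1, and S100A9 by 1.81 ± 0.12 and 2.73 ± 0.15, with the largest adjusted p at 7.87e-08 (edgeR quasi-likelihood test, Benjamini-Hochberg). With dimerizer alone S100A8 differed by 0.06 ± 0.11 (-0.09 on TPM). S100A9 was higher by 0.35 ± 0.11 there (edgeR quasi-likelihood, Benjamini-Hochberg adjusted p = 0.026), a call lost on TPM (0.19) and without WT dimerizer replicate 1 (0.33) or 3 (0.32) or JNKKO dimerizer replicate 2 (0.34) or 3 (0.33).

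The subunits did not keep 1 proportion. Per length, S100A9 was at 2.06 ± 0.108 times S100A8 in control WT acini, 1.93 ± 0.0928 in those on dimerizer and 0.957 ± 0.0652 in those on dimerizer plus TGF-β1 (SD, n = 3, TPM ratio). In JNKKO the ratio was 2.29 ± 0.0378, 2.35 ± 0.125 and 1.45 ± 0.0237. All 6 libraries with TGF-β1 lay below the other 12, the WT ones lowest. Over the 18 libraries the log2 CPM of S100A8 and S100A9 had a Pearson r of 0.993, a description over libraries that share groups.

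Because neutrophils and monocytes carry calprotectin, 9 blood cell markers were read beside it. Their summed level was 12.4 to 18.9 CPM in WT groups and JNKKO control, 48.3 to 53.3 in JNKKO dimerizer and 42.3 to 47.1 in JNKKO dimerizer plus TGF-β1, of which CD68, a lysosomal gene, gave up to 47.5. The granulocyte receptor gene CSF3R was at most at 0.153 CPM, with 11 libraries at 0, LYZ at most at 0.0383 with 13 at 0, CD3E at most at 0.0704 with 13 at 0, and the pan-leukocyte gene PTPRC at most at 1.07. ITGAM, an integrin chain, was at 0.649 ± 0.119 CPM in control WT acini, 2.92 ± 0.710 in those on dimerizer and 0.221 ± 0.0725 in those on dimerizer plus TGF-β1 (SD, n = 3). Its JNKKO means were 1.65 ± 0.183, 1.27 ± 0.246 and 0.0802 ± 0.0722 CPM. On the log2 scale ITGAM rose with dimerizer by 2.17 ± 0.26 in WT, as calprotectin did. In JNKKO that step was -0.38 ± 0.26 and did not pass. With TGF-β1 ITGAM changed by -3.71 ± 0.31 in WT and -3.89 ± 0.43 in JNKKO. In WT, CD14 went the other way at the dimerizer step, from 6.92 ± 0.698 CPM without to 2.75 ± 0.607 with dimerizer (SD, n = 3). The granulocyte enzyme gene MPO was at most at 0.839 CPM in the WT libraries, at 0.230 to 0.565 in JNKKO control, 1.54 to 1.98 in JNKKO dimerizer and 0.385 to 0.671 in JNKKO dimerizer plus TGF-β1. It rose with dimerizer in JNKKO by 2.15 ± 0.35 and was higher in JNKKO than in WT on dimerizer (2.65 ± 0.35) and after TGF-β1 (2.37 ± 0.49). With TGF-β1, where calprotectin fell in both genotypes, CD14 changed by -0.75 ± 0.19 in WT and -1.29 ± 0.22 in JNKKO. MPO changed there by -1.43 ± 0.53 and -1.71 ± 0.33, and CD68 by 0.60 ± 0.14 and -0.07 ± 0.11. The part of blood cells in the calprotectin values was not tested.

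**Figure D2:**
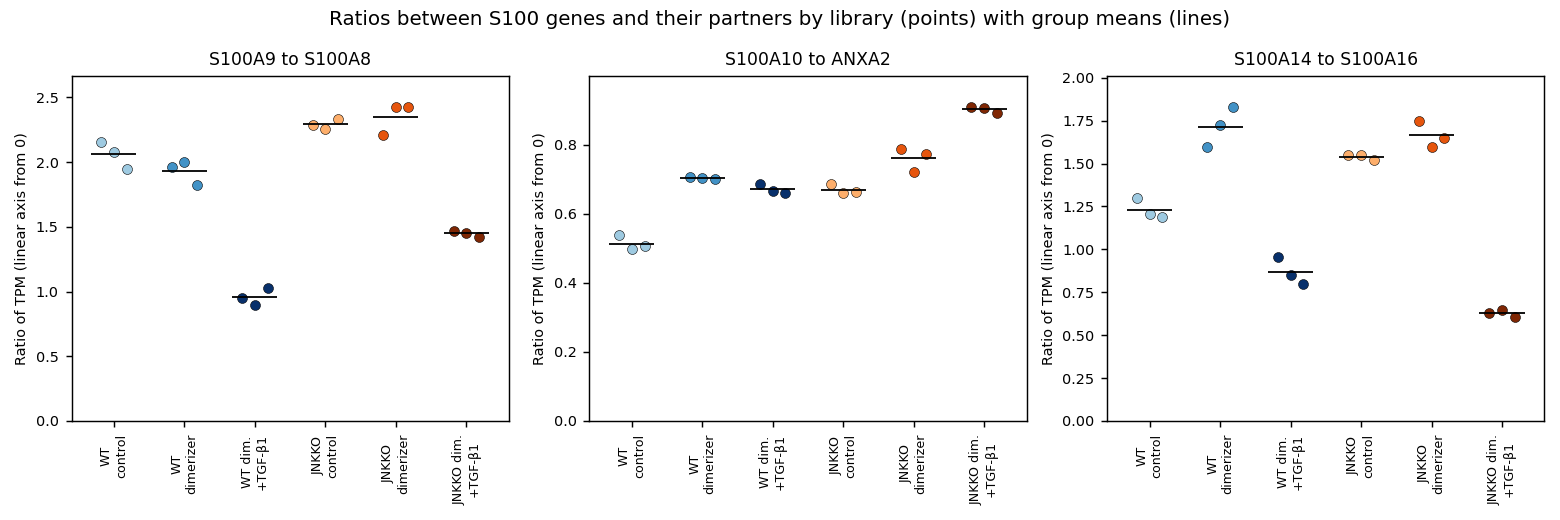
TPM ratios of S100A9 to S100A8, S100A10 to ANXA2 and S100A14 to S100A16 in each library, by group. Points are libraries and lines are group means, on axes that start at 0. The ratios of S100A9 to S100A8 and of S100A14 to S100A16 are lowest in the groups with TGF-β1, and that of S100A10 to ANXA2 is highest, with a mean of 0.903, in JNKKO dimerizer plus TGF-β1.

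S100A7 (psoriasin, a secreted antimicrobial protein) and S100P (a member first found in placenta) were scarce. S100A7 (153457744 to 153460701, minus strand) was at 0.698, 1.61 and 3.93 CPM in control WT acini, 0.398, 0.379 and 0.225 in WT dimerizer, and held 1, 2 and 0 counts in WT dimerizer plus TGF-β1. In JNKKO it was at 1.44, 1.45 and 1.46 CPM in control, 0.342, 0.255 and 0.322 on dimerizer, and 0.245, 0.134 and 0.360 once TGF-β1 was added. Control libraries of both genotypes were above all dimerizer libraries, and the WT control libraries spread widely around those of JNKKO control.

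The fitted dimerizer differences of S100A7 were -2.63 ± 0.48 in WT and -2.24 ± 0.51 in JNKKO. Because the gene passed the filter on low counts through its control groups, the test is taken from the fit with no filter. There the values were -2.63 and -2.23 (edgeR quasi-likelihood, Benjamini-Hochberg adjusted p = 6.04e-14 and 1.02e-08). The filtered fit gave far larger adjusted p values for these steps, 8.26e-05 in WT and 0.00146 in JNKKO (edgeR quasi-likelihood, Benjamini-Hochberg). The filtered WT value was -1.79 without WT control replicate 3. With TGF-β1 S100A7 fell further in WT, from 33 to 3 counts over the group, a ratio of 10.5 (3.30 to 53.6, 95% interval for counting error). The edgeR quasi-likelihood adjusted p (Benjamini-Hochberg) of this step was 3.13e-06 with no filter and 0.00449 in the filtered fit. In JNKKO that step was -0.31 ± 0.66 and did not pass. JNKKO dimerizer plus TGF-β1 held 21 counts of S100A7 against the 3 of WT, a ratio of 7.77 (2.32 to 40.7). For this difference between genotypes the edgeR quasi-likelihood adjusted p (Benjamini-Hochberg) was 0.000367 with no filter and 0.0239 in the filtered fit. Without replicate 2 of WT dimerizer plus TGF-β1, which held 2 of the 3 counts, the fitted log2 difference moved from 2.81 to 3.70, and that of TGF-β1 in WT from -3.24 to -4.12. In the filtered fit the call between genotypes ended without replicate 1 or 3 of WT dimerizer plus TGF-β1 (adjusted p = 0.0783 and 0.0892, edgeR, Benjamini-Hochberg) or of JNKKO dimerizer plus TGF-β1 (0.0543 and 0.1). The TGF-β1 interaction of S100A7 was 2.93 in both fits (edgeR quasi-likelihood, Benjamini-Hochberg adjusted p = 0.00383 with no filter and 0.0667 in the filtered fit). S100A7A, a near-identical neighbour with at most 0.387 CPM in any library, could trade reads with S100A7 under the authors' counting, so both are uncertain.

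S100P was at 5.30, 5.10 and 5.91 CPM in control WT acini, 6.71, 2.04 and 3.62 in those on dimerizer, and 1.33, 0.928 and 0.833 in those on dimerizer plus TGF-β1. Its JNKKO values were 5.53, 6.00 and 5.44 CPM in control, 5.51, 13.5 and 6.18 on dimerizer, and 5.36, 4.09 and 4.32 once TGF-β1 was added. The WT group with TGF-β1 was below all 15 other libraries, and JNKKO dimerizer replicate 2 stood above all others.

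TGF-β1 lowered S100P in WT by 1.97 ± 0.51 on the log2 scale, a fall of 3.92-fold (edgeR quasi-likelihood, Benjamini-Hochberg adjusted p = 0.00384), and gave -0.89 ± 0.38 in JNKKO (edgeR quasi-likelihood, Benjamini-Hochberg adjusted p = 0.0577). The JNKKO value passed with no filter (-0.90), in DESeq2 (-0.86) and without JNKKO dimerizer replicate 1 (-1.10) or 3 (-1.08). Over the fits that left out 1 library it ran from -1.10 to -0.35. With TGF-β1 S100P was higher in JNKKO than in WT by 2.14 ± 0.50 (edgeR quasi-likelihood, Benjamini-Hochberg adjusted p = 0.00295), and the interaction, 1.08 ± 0.65, did not pass. With dimerizer alone it was higher in JNKKO by 1.07 ± 0.38 (edgeR quasi-likelihood, Benjamini-Hochberg adjusted p = 0.0393). That call ended without WT dimerizer replicate 2 (0.73) or 3 (0.98), without JNKKO dimerizer replicate 2 (0.53), when the other 4 groups were left out of the fit (1.06) and on log2(TPM + 1) (0.79). In a fit with the replicate number as a block it was 1.07 (edgeR quasi-likelihood, Benjamini-Hochberg adjusted p = 0.0575).

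S100A4 (153543613 to 153550136, minus strand), which binds the myosin heavy chain MYH9 and is known from motile cells, fell with dimerizer and rose with TGF-β1 in both genotypes. It was at 37.5, 32.44 and 35.1 CPM in control WT acini, 15.1, 16.1 and 18.01 in those on dimerizer, and 32.37, 29.4 and 30.5 in those on dimerizer plus TGF-β1. In JNKKO it was at 14.0, 13.8 and 14.0 CPM in control, 10.7, 9.07 and 11.4 on dimerizer, and 22.3, 22.5 and 23.3 once TGF-β1 was added. No ranges of neighbouring groups in the order of means overlapped, from JNKKO dimerizer up to WT control, though the top pair, WT with TGF-β1 and WT control, overlapped in TPM.

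The dimerizer lowered S100A4 by 1.09 ± 0.07 on the log2 scale in WT and by 0.42 ± 0.08 in JNKKO (edgeR quasi-likelihood, Benjamini-Hochberg adjusted p = 1.24e-13 and 0.000156), and the difference between them was 0.67 ± 0.11 (edgeR quasi-likelihood, Benjamini-Hochberg adjusted p = 1.31e-05). TGF-β1 raised it by 0.91 ± 0.07 in WT and 1.13 ± 0.08 in JNKKO. S100A4 was lower in JNKKO in control (-1.33 ± 0.07), on dimerizer (-0.66 ± 0.08) and after TGF-β1 (-0.44 ± 0.07), the only member lower in JNKKO in all 3. MYH9 itself fell with dimerizer in WT (-0.16 ± 0.04), rose with it by 0.25 ± 0.04 in JNKKO, where S100A4 fell, and rose with TGF-β1 by 0.99 ± 0.04 in WT and 0.66 ± 0.04 in JNKKO. Over 18 libraries the log2 CPM of S100A4 had a Pearson r of -0.922 with S100A14 and -0.808 with S100A8. The gene overlaps S100A3 by 2808 bases, and with strand use in counting not given in the sources used here, reads of the pair may be mixed. In the groups with TGF-β1 the fibroblast markers summed to 89.9 to 121 CPM in WT and 61.5 to 76.2 in JNKKO against 17.0 to 33.9 elsewhere, nearly all of it DCN, with PDGFRA at most at 0.365 CPM. Their part in the S100A4 values was not tested.

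S100A10 (151982915 to 151994390, minus strand), the member that does not bind calcium, forms a heterotetramer with annexin A2 that sits at membranes and captures plasminogen. It rose at every step. The WT libraries held 219, 213 and 227 CPM in control, 350.3, 345 and 343 on dimerizer, and 577, 670.0 and 649.6 once TGF-β1 was added. In JNKKO it was at 269, 267 and 273 CPM in control, 648, 540.1 and 637 on dimerizer, and 1109, 1100.0 and 1068 once TGF-β1 was added. Within each genotype the 3 treatments did not overlap, and every JNKKO group was above its WT counterpart.

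The dimerizer raised S100A10 by 0.66 ± 0.06 in WT and 1.17 ± 0.06 in JNKKO, with an interaction of 0.52 ± 0.08 (edgeR quasi-likelihood, Benjamini-Hochberg adjusted p = 3.59e-05). TGF-β1 raised it by 0.87 ± 0.06 and 0.84 ± 0.06, and there the interaction was -0.02 ± 0.08 (0.05 on TPM; edgeR quasi-likelihood, Benjamini-Hochberg adjusted p = 0.851). Its partner ANXA2 rose by 0.21 ± 0.05 with dimerizer in WT and 1.01 ± 0.05 in JNKKO, and by 0.98 ± 0.05 and 0.62 ± 0.05 with TGF-β1. Per length, S100A10 was at 0.514 ± 0.0225 of ANXA2 in control WT acini, 0.704 ± 0.00332 in those on dimerizer and 0.671 ± 0.0141 in those on dimerizer plus TGF-β1 (SD, n = 3, TPM ratio). In JNKKO the ratio was 0.669 ± 0.0141, 0.761 ± 0.0344 and 0.903 ± 0.00815. WT control was the lowest group and JNKKO dimerizer plus TGF-β1 the highest, both apart from the other libraries. Over the 18 libraries S100A10 had a Pearson r of 0.977 with ANXA2 and 0.969 with its chromosomal neighbour S100A11.

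S100A6 (calcyclin; 153534599 to 153536244, minus strand) binds CACYBP, annexins and tropomyosin and is known from dividing cells. It was at 1034, 1019.5 and 1079 CPM in control WT acini, 1051, 1016 and 1019.9 in those on dimerizer, and 1059, 1112 and 1079.5 in those on dimerizer plus TGF-β1. Its JNKKO values were 816, 858 and 853 CPM in control, 1304, 1172 and 1292 on dimerizer, and 1512, 1560.3 and 1489 once TGF-β1 was added. WT control overlapped both other WT groups, which did not overlap each other, while JNKKO was below WT in control and above it in the other treatments.

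S100A6 was at -0.02 ± 0.04 with dimerizer in WT (0.10 on TPM, where it passed limma) and rose by 0.58 ± 0.04 in JNKKO. The interaction was 0.60 ± 0.05 (edgeR quasi-likelihood, Benjamini-Hochberg adjusted p = 3.34e-10). With TGF-β1 it was at 0.07 ± 0.04 in WT, which passed on TPM (0.23), and rose by 0.28 ± 0.04 in JNKKO, with an interaction of 0.20 ± 0.05 (edgeR quasi-likelihood, Benjamini-Hochberg adjusted p = 0.00356). Between genotypes it was -0.31 ± 0.04 in control, 0.29 ± 0.04 on dimerizer and 0.49 ± 0.04 after TGF-β1, all past the test.

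S100A2, S100A14 and S100A16 are epithelial members: S100A2 is known from basal cells and as a p53 partner, and S100A14 and S100A16 are neighbours with 1109 bases between them. All 3 rose with dimerizer in both genotypes, and all 3 were higher in JNKKO under each treatment. S100A2 (153561108 to 153567890, minus strand) was at 711, 761 and 821 CPM in control WT acini, 1557.5, 1581 and 1629 in those on dimerizer, and 1489.9, 1694 and 1674 in those on dimerizer plus TGF-β1. In JNKKO it was at 1111, 1201 and 1272 CPM in control, 2607, 2526 and 2606 on dimerizer, and 1988.5, 2059.9 and 1912 once TGF-β1 was added. WT dimerizer groups with and without TGF-β1 overlapped, and no other neighbouring groups did. The dimerizer steps of S100A2 were 1.06 ± 0.06 in WT and 1.11 ± 0.06 in JNKKO. TGF-β1 gave 0.03 ± 0.05 in WT (0.20 on TPM, which passed limma) and lowered it by 0.38 ± 0.05 in JNKKO (-0.13 on TPM, which did not pass), with an interaction of -0.40 ± 0.08 (edgeR quasi-likelihood, Benjamini-Hochberg adjusted p = 0.000496).

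S100A14 (153614255 to 153616986, minus strand) rose with dimerizer and fell with TGF-β1 in both genotypes. It was at 435, 453 and 476 CPM in control WT acini, 858, 873 and 898 in those on dimerizer, and 364, 378 and 369 in those on dimerizer plus TGF-β1. Its JNKKO values were 790.1, 805 and 808 CPM in control, 1236, 1196 and 1214 on dimerizer, and 439.7, 445 and 419.6 once TGF-β1 was added. In both genotypes the dimerizer group was highest, and the JNKKO libraries with TGF-β1 overlapped WT control only.

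The dimerizer raised S100A14 by 0.95 ± 0.03 in WT and 0.60 ± 0.03 in JNKKO, with an interaction of -0.35 ± 0.05 (edgeR quasi-likelihood, Benjamini-Hochberg adjusted p = 1.16e-06). TGF-β1 lowered it by 1.24 ± 0.03 in WT and 1.48 ± 0.04 in JNKKO, and here, unlike S100A8 and S100A9, the fall was larger in JNKKO (interaction -0.24 ± 0.05, edgeR quasi-likelihood, Benjamini-Hochberg adjusted p = 0.000284). Its Pearson r with S100A8 over 18 libraries was 0.876.

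S100A16 (153606886 to 153613145, minus strand) was at 358, 402 and 428 CPM in control WT acini, 575, 543 and 526 in those on dimerizer, and 408, 474 and 494 in those on dimerizer plus TGF-β1. In JNKKO it was at 547, 558 and 569 CPM in control, 757, 801 and 787 on dimerizer, and 743, 733 and 740.0 once TGF-β1 was added. It rose with dimerizer by 0.47 ± 0.06 in WT and 0.49 ± 0.06 in JNKKO. With TGF-β1 it fell by 0.26 ± 0.06 in WT, a call lost on TPM (-0.10), and was at -0.08 ± 0.06 in JNKKO, which turned to 0.18 and passed limma on TPM. Per length, S100A14 was at 1.23 ± 0.0592 times S100A16 in WT control, 1.72 ± 0.116 in WT dimerizer and 0.867 ± 0.0805 with TGF-β1, and at 1.54 ± 0.0147, 1.66 ± 0.0767 and 0.627 ± 0.0222 in JNKKO (SD, n = 3, TPM ratio). The pair, though 1109 bases apart, thus changed order of level with TGF-β1 in both genotypes.

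**Figure D3:**
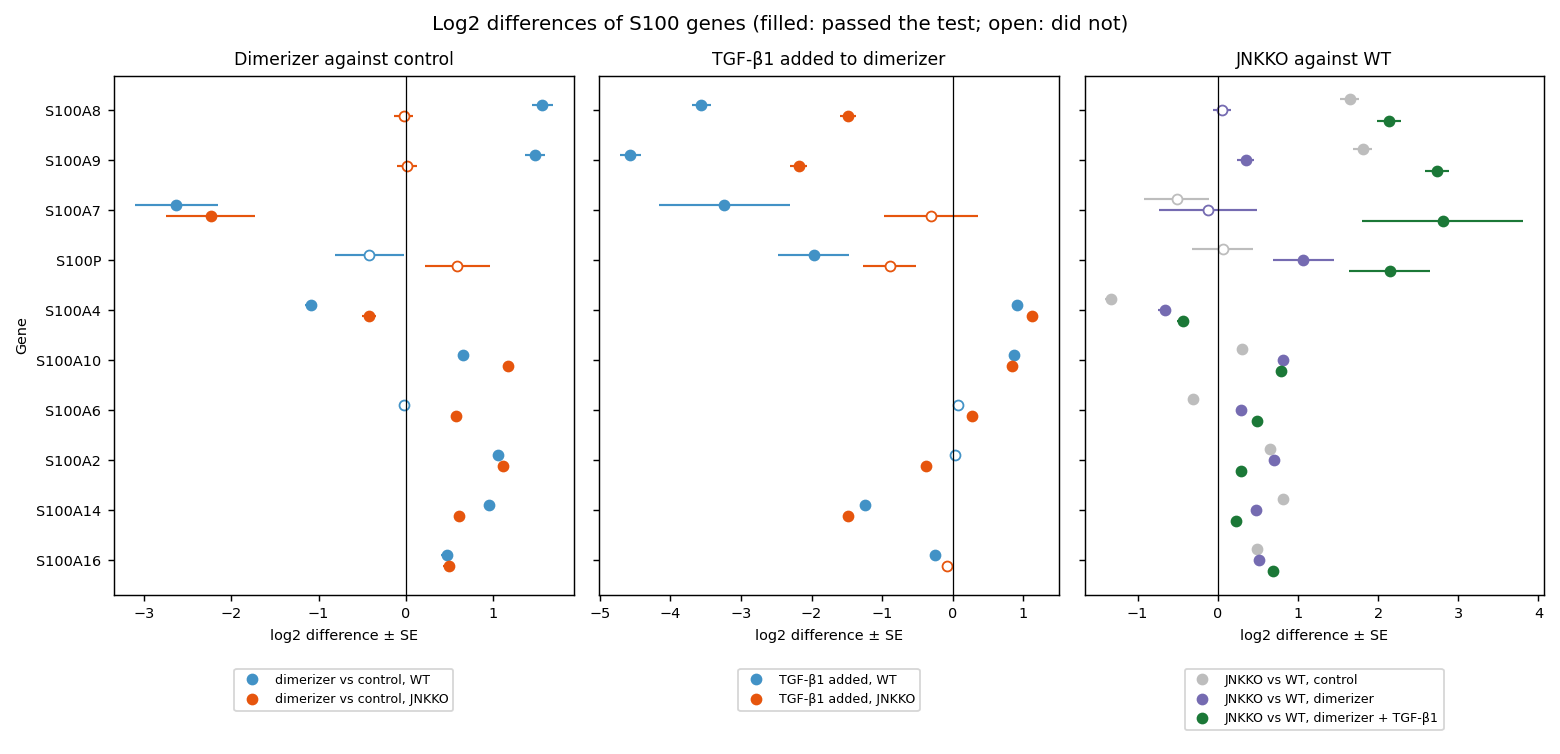
Log2 differences of the 10 S100 genes ± SE for dimerizer against control, TGF-β1 added to dimerizer, and JNKKO against WT. Filled points passed the edgeR test and open points did not. With dimerizer S100A8 and S100A9 sit at 1.56 and 1.48 in WT and at -0.03 and 0.01 in JNKKO.

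Counted together, WT dimerizer against control gave 6 members higher and 2 lower, where 55.9% of the 16911 genes tested passed in either direction (30.3% higher and 25.6% lower). S100A7, which passed the filter through its control groups, is 1 of the 2 lower members in each genotype. On log2(TPM + 1) with limma 7 members were higher and 2 lower in WT, beside 6250 genes higher and 2814 lower instead of 5125 and 4326. The median log2 difference was 0.56 over members and 0.03 over all genes. In JNKKO 5 rose and 2 fell, beside 40.4% of all genes (22.5% higher and 17.9% lower), with medians of 0.53 and 0.01.

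With TGF-β1 2 members rose and 6 fell in WT, beside 65.2% of all genes (33.4% higher and 31.8% lower), and 3 rose and 4 fell in JNKKO, beside 60.7% (30.5% and 30.3%). The 6 in WT include S100A7, which passed the filter through its control groups. Medians were -0.75 and -0.34 over members against 0.00 and -0.01 over all genes. On log2(TPM + 1) with limma these splits were 4 higher and 5 lower in WT and 4 higher and 3 lower in JNKKO. All genes then split 7150 higher and 3664 lower in WT, instead of 5643 and 5380, and 8046 and 2631 in JNKKO, instead of 5154 and 5117, with medians of 0.10 and 0.16. Dimerizer and TGF-β1 steps share the dimerizer libraries, so their values stand side by side and are no independent evidence of each other.

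Between genotypes 6 members were higher in JNKKO and 2 lower in control, beside 49.3% of all genes (25.8% higher and 23.5% lower). With dimerizer the counts were 7 and 1, beside 40.1% (21.6% and 18.5%), and with TGF-β1 9 and 1, beside 52.9% (26.5% and 26.4%). The 9 include S100A7, with the same limit from the filter, whose call ended in 4 of the 6 fits that left out 1 library. On log2(TPM + 1) the dimerizer comparison gave 5 members higher and 1 lower, beside 1773 genes higher and 5425 lower instead of 3654 and 3121. With TGF-β1 the member median was 0.74 against 0.00 for all genes. The interaction with dimerizer called 3 members higher and 3 lower, beside 42.6% of all genes (21.4% and 21.2%). On log2(TPM + 1) the members again split 3 and 3, while all genes split 2078 higher and 4886 lower instead of 3611 and 3589. That with TGF-β1 called 3 higher and 2 lower, beside 32.9% (14.1% and 18.8%), and 5 and 2 on log2(TPM + 1), where all genes split 3332 higher and 1958 lower instead of 2391 and 3179. The member median of absolute log2 differences was 1.002 for dimerizer in WT, 0.58 in JNKKO, 1.07 for TGF-β1 in WT and 0.87 in JNKKO. Over all genes these medians were 0.29, 0.20, 0.38 and 0.34.

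Of 11 further S100 genes, 5 passed the filter: S100A1, S100A3, S100A11, S100A12 and S100A13. Of these, 3 rose and 0 fell with dimerizer in each genotype, beside 55.9% of all genes called in WT and 40.4% in JNKKO. S100A11, known from annexin A1 binding and keratinocyte growth control, rose by 0.45 ± 0.04 in WT and 0.86 ± 0.04 in JNKKO, S100A13, which takes part in release of FGF1, by 0.75 ± 0.05 and 0.73 ± 0.05, and S100A3 by 0.64 ± 0.09 and 1.05 ± 0.08. With TGF-β1 4 rose and 1 fell in WT, and 2 rose and 1 fell in JNKKO (65.2% and 60.7% of all genes called), S100A11 at 0.38 ± 0.04 and 0.29 ± 0.04. The one that fell in WT, S100A12 (calgranulin C, which lies between S100A9 and S100A8), had 31 counts in WT dimerizer and none with TGF-β1, at least 9.89-fold lower when 3 counts are set over the group as the floor. WT dimerizer replicate 2 held 20 of the 31, and without it the bound was 5.34-fold. S100A12 passed the filter on low counts through libraries without TGF-β1. Its distance to S100A9 is 12678 bases and to S100A8 14382. S100A3 overlaps S100A4 and S100A13 overlaps S100A1, so the values of these 4 are uncertain.

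The fused-type S100 proteins, large epidermal proteins with an S100 domain at one end, had no called rise with dimerizer or TGF-β1. Of 7, FLG, FLG2, HRNR and TCHH passed the filter. With dimerizer 0 rose and 3 fell in WT and 0 rose and 4 fell in JNKKO, beside 25.6% and 17.9% of all genes called lower. Filaggrin (FLG) went from 31.2 ± 1.04 to 6.01 ± 0.282 CPM in WT (-2.38 ± 0.09) and from 9.38 ± 0.614 to 3.47 ± 0.355 in JNKKO (-1.43 ± 0.11). Hornerin (HRNR) fell by 0.66 ± 0.11 and 1.31 ± 0.13, and with TGF-β1 by 2.23 ± 0.15 and 2.14 ± 0.19. With TGF-β1 0 rose and 3 fell in each genotype, beside 31.8% and 30.3% of all genes. FLG2, which passed the filter on low counts through its higher groups, is among the falls at each of these steps. On dimerizer it held 56 counts in WT and 15 in JNKKO, and with TGF-β1 added 4 and 2. JNKKO was lower for 2 in control, 4 on dimerizer and 2 after TGF-β1, and higher for 0 in each, beside 23.5%, 18.5% and 26.4% of all genes called lower.

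**Figure D4:**
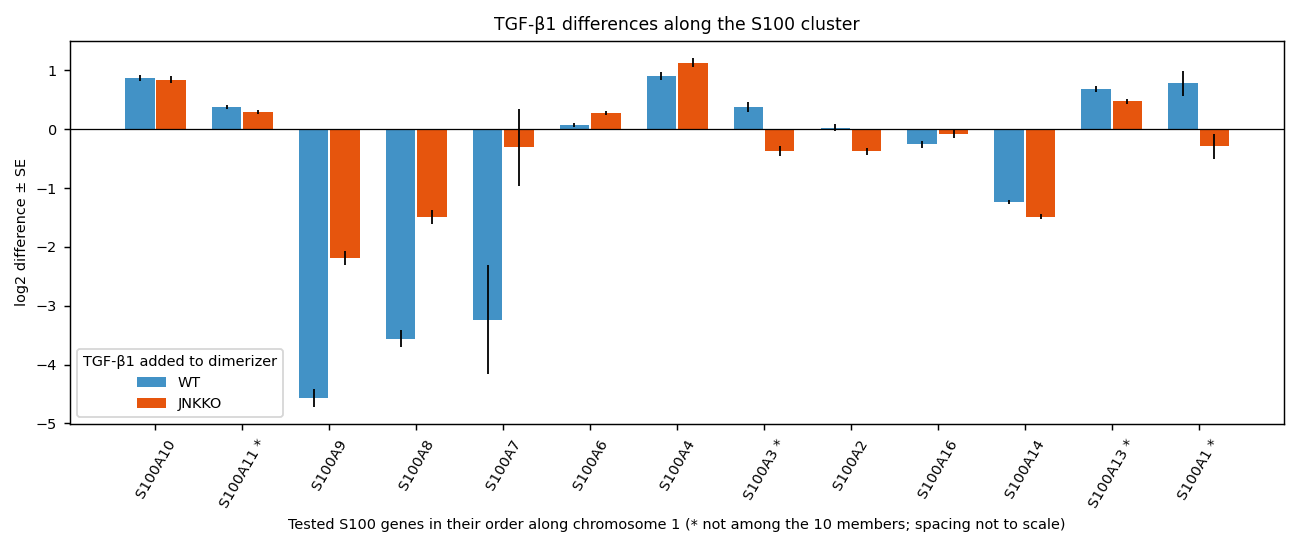
Log2 differences for TGF-β1 added to dimerizer, WT and JNKKO, of the tested S100 genes on chromosome 1 in chromosomal order. Bars are fitted values with SE lines, spacing does not show distance, S100A12 is left out because 1 group held no count, and the WT bar of S100A7 rests on 3 counts. S100A9, S100A8 and S100A14 fell in both genotypes while S100A10, S100A11, S100A4 and S100A13 rose.

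Receptors and binding partners of S100 proteins, 19 genes, all passed the filter. With dimerizer 6 rose and 5 fell in WT and 4 rose and 3 fell in JNKKO, near the 55.9% and 40.4% of all genes called. With TGF-β1 10 rose and 3 fell in WT and 9 rose and 5 fell in JNKKO, beside 65.2% and 60.7%. In limma on log2(TPM + 1) the same splits were 11 and 4, 3 and 3, 13 and 1, and 12 and 0. The calprotectin receptor TLR4 rose with TGF-β1 by 1.89 ± 0.15 in WT and 0.96 ± 0.16 in JNKKO, while the receptor AGER passed in none of the 9 comparisons (log2 differences from -0.19 to 0.29). CD36, which binds calprotectin with its fatty acid load, was lower in JNKKO, at -0.79 ± 0.20 in control, -1.77 ± 0.23 on dimerizer and -2.46 ± 0.25 after TGF-β1. Between genotypes 4 partners were higher and 5 lower in control, 5 and 2 on dimerizer, and 5 and 7 after TGF-β1, on log2(TPM + 1) 4 and 5, 2 and 9, and 3 and 8. All genes were called at 49.3%, 40.1% and 52.9%. The interactions called 7 higher and 3 lower for dimerizer and 4 and 8 for TGF-β1, on log2(TPM + 1) 4 and 7 and 5 and 5, beside 42.6% and 32.9% of all genes. AHNAK, a scaffold bound by S100A10 and annexin A2, fell by 0.93 ± 0.04 with dimerizer in WT, where S100A10 rose, and was at 0.06 ± 0.04 in JNKKO.

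For each member the 3 genes most alike in log2 CPM over the 18 libraries were taken among genes of at least 5 CPM on average. S100A10 was most like LGALS1 (galectin-1; r = 0.994), EFNB2 (0.993) and PLAU (urokinase; 0.992). S100A8 was most like EGLN1 (0.982), RPS27A (0.98) and RPSA (0.979), and S100A9 like RPL21 (0.987), RPL17 (0.982) and RPS26 (0.981), ribosomal protein genes whose many pseudogenes make their own values uncertain. S100A14 was most like CHI3L1 (0.987), WDR75 (0.987) and AHCY (0.982), and S100A4 like MIOS (0.985), DAZAP2 (0.981) and PDE4DIP (0.98). S100A2 was most like MCTP1 (0.987), EFL1 (0.978) and DUSP7 (0.976), and S100A16 like TOMM34 (0.986), CDC42EP1 (0.979) and DUSP6 (0.978). DUSP6 and DUSP7 encode ERK phosphatases. S100A6 was most like RHOB (0.97), COPS8 (0.967) and IAH1 (0.965), S100A7 like the elastase inhibitor gene PI3 (0.938), EMP2 (0.9) and SECTM1 (0.894), and S100P like PEX3 (0.892), RFC1 (0.883) and BLMH (0.882). The 18 libraries share 6 groups and their depths, so these values are a description.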

How the data were processed

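RNA was measured in 18 libraries, with oligo(dT) selection, ribosomal RNA depletion and random priming, per the labels' protocols. Reads were trimmed with cutadapt and quantified with RSEM against hg38, per the submitters' processing notes. Not given in the sources used here were versions, aligner, annotation and strand use. The authors deposited, per the file headers, RSEM expected counts and TPM for each gene. RSEM divides reads of near-identical genes by a model. Of the 42141 genes, 42125 were matched to GENCODE 29 by transcript identifier, and 127 altered names were restored.

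Expected counts were rounded and put to edgeR 4.0.16's quasi-likelihood F test (R 4.3.3; robust, TMM scaling, default filter with a minimum count of 10), 1 mean per group in 1 fit of 18 libraries. Benjamini-Hochberg adjustment ran over 16911 genes with a threshold of 0.05. Errors after ± are standard errors, taken as log2 difference over root F, unless marked SD. CPM used TMM-scaled library sizes. The fit was tested on simulated data. TMM factors were 0.962 to 1.04, and the common biological coefficient of variation was 4.47%. Chi-square per gene between replicates was 2.28 to 12.1, so each library was counted once.

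Alternatives were other scaling, no filter, only the compared groups, a replicate block, library sizes without mitochondrial transcripts, DESeq2 1.42.0, limma 3.58.1 on log2(TPM + 1) and log2(TPM + 0.1), and leaving out each library. "On TPM" means log2(TPM + 1) with limma. Python 3.11.15 was used with pandas 2.3.3, numpy 2.4.6, scipy 1.17.1 and matplotlib 3.10.9. All 10 members are named in every comparison, and others by list or likeness. Members and lists were chosen with earlier results of these data known. The level of 1 blood cell marker is not reported here.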

Additional observations from a re-analysis of the deposited data

Results flagged for a closer look

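The change between treatments differed between genotypes for 6 members under dimerizer and 5 under TGF-β1, by the interaction term of edgeR with Benjamini-Hochberg adjustment (JNKKO change minus WT change, log2). For dimerizer the differences were 0.67 for S100A4, 0.60 for S100A6, -1.59 for S100A8, -1.46 for S100A9, 0.52 for S100A10 and -0.35 for S100A14. S100A8 and S100A9 passed the test in WT and not in JNKKO, S100A4 fell less in JNKKO, S100A10 rose more there, and S100A6 rose in JNKKO while its WT change, -0.02, did not pass. For TGF-β1 they were -0.40 for S100A2, 0.20 for S100A6, 2.08 for S100A8, 2.39 for S100A9 and -0.24 for S100A14. S100A7, at 2.93 for TGF-β1, did not pass in the filtered fit and passed in that with no filter. S100A8 and S100A9 fell less in JNKKO, and S100A14 fell more. In both terms S100A6 was positive and S100A14 negative. The 2 terms share the dimerizer libraries. Among all genes 42.6% and 32.9% passed these tests.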

How the results depend on the processing

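Of 138 counts of called members under the alternatives, 136 were within 1.5 times the value given. The exceptions were the TGF-β1 interaction with no filter and on log2(TPM + 0.1), where 8 members passed instead of 5. Of 1380 log2 differences of members, 1300 kept their direction and side of the threshold, 21 lost and 29 gained a call, and 30 turned in sign, all of them of values that had not passed. With limma on log2(TPM + 1) the turned values were 0.10 for S100A6 with dimerizer in WT, -0.034 for S100A9 with dimerizer in JNKKO, 0.18 for S100A16 with TGF-β1 in JNKKO, -0.092 for S100A8 between genotypes with dimerizer, -0.0895 for S100A2 and -0.14 for S100A16 in the dimerizer interaction, and 0.053 for S100A10 in the TGF-β1 interaction. On log2(TPM + 0.1) these 7 were 0.10, -0.034, 0.18, -0.092, -0.0896, -0.14 and 0.053, and S100A7 in the dimerizer interaction was -0.076. The cause was not tested.

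Leaving out 1 library at a time gave -0.038 to 0.0028 for S100A6 with dimerizer in WT, -0.099 to 0.047 for S100A8 and -0.046 to 0.088 for S100A9 with dimerizer in JNKKO, and -0.014 to 0.083 for S100A2 with TGF-β1 in WT. S100A7 between genotypes ran from -0.93 to 0.33 in control, turning without WT control replicate 3, and from -0.35 to 0.013 with dimerizer. In the dimerizer interaction S100A2 ran from -0.0004 to 0.10, S100A7 from -0.45 to 0.81 and S100A16 from -0.0398 to 0.086, and in the TGF-β1 interaction S100A10 ran from -0.10 to 0.043. Without WT dimerizer plus TGF-β1 replicate 2 the fitted S100A7 fall was -4.12.

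Same-numbered samples did not deviate together (correlations from -0.0585 to 0.0529), so no effect shared by replicate number was seen. That cannot show whether the libraries were set up or processed in pairs. A replicate block left the members called at 8, 7, 8, 7, 8, 7, 10, 6 and 6 against 8, 7, 8, 7, 8, 8, 10, 6 and 5 in the order of comparisons given (dimerizer in WT and JNKKO, TGF-β1 in WT and JNKKO, genotype in control, dimerizer and TGF-β1, and both interactions). It ended the S100P call between genotypes with dimerizer (1.07) and made the S100A7 TGF-β1 interaction pass (2.95). Low counts limit S100A7 and S100P.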
